A study of Mus musculus with 15 samples.

Results

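The genes described here are 10 members of the EGR and AP-1 groups of transcription factors in mouse bone marrow-derived macrophages (BMDMs): Egr1, Egr2, Egr3, their partner Nab2, and Fos, Fosl2, Jun, Junb, Jund and Atf3. They were chosen by name, by matching the Ensembl identifiers of the deposited count matrix to these symbols, and all 10 were found among its 53465 identifiers and passed the low-count filter that left 13938 genes for testing. Bone marrow cells were grown with M-CSF at 20 ng/ml for 7 days, and the macrophages were then left without added cytokine (control) or treated for 24 h with IL-4 at 10 ng/ml, with the same IL-4 and IL-6 at 40 ng/ml (IL-4/IL-6), with IL-13 at 40 ng/ml, or with the same IL-13 and IL-6 at 40 ng/ml (IL-13/IL-6). RNA from 3 replicates of each of the 5 groups was sequenced, which gave 15 libraries. The study calls its replicates biological, and the sources used here do not say whether each came from a separate mouse, so p-values measure the spread between these libraries. The study's methods give the marrow donors as mice of 8 to 12 weeks of age, and the donors' strain is not described here. No group received IL-6 alone, so the effect of IL-6 is measured here only beside IL-4 or IL-13.

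EGR proteins are zinc-finger transcription factors, and AP-1 is a family of dimers built from basic leucine zipper proteins of the FOS, JUN and ATF families. Many of these genes are immediate-early genes: growth factors and cytokines switch them on within minutes through ERK, JNK and the serum response factor SRF, and the transcripts then decay quickly. In macrophages they take part in differentiation, in the inflammatory response and in alternative activation by IL-4 and IL-13, 2 cytokines that share a receptor chain and signal through STAT6, whereas IL-6 signals through STAT3 and ERK. A sample taken at 24 h therefore shows the sustained level of these transcripts and not their early peak.

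Libraries held between 17001352 and 18918686 counted reads, so depth differed little between groups. Replicates of the control and IL-4 groups were close to each other, with a biological coefficient of variation of 4.48% and 4.54%, against 14.8% in IL-4/IL-6, 10.9% in IL-13 and 7.39% in IL-13/IL-6. Replicate 2 of IL-4/IL-6 and replicate 1 of IL-13 stood apart from the other libraries of their groups, and the members whose results rest on them are named with the value obtained without them. All 8 macrophage markers, among them Csf1r and Adgre1, were present in every library. Their summed level was 18930 to 21110 CPM (read counts scaled to a common library total) in control and 10900 to 12700 in IL-4/IL-6. It was 14310 to 14780 CPM with IL-4, 17050 to 19800 with IL-13 and 13930 to 14820 with IL-13/IL-6. Lyz2 made up most of this sum, with a mean of 14924 CPM in control and 6852 CPM in IL-4/IL-6. Against control, the IL-4/IL-6 cultures had 3 of the 8 markers called up (Adgre1, Fcgr1 and Cd68) and 5 called down. Markers of other cells differed between control and every treated group: the 8 granulocyte markers summed to 469 to 556 CPM in control and to at most 2.36 CPM in any treated library, 6 markers of mast cells, basophils and eosinophils to between 19 and 22 CPM against at most 0.332, and 6 stromal markers to 16.6 to 21.4 CPM against at most 0.375. The 4 B cell markers summed to 10.2 to 10.8 CPM in control and to at most 1.55 CPM elsewhere, and the T cell and erythroid markers reached at most 1.16 CPM in any library, with Cd3e at 0 throughout. The 5 megakaryocyte markers summed to between 371 and 416 CPM in control, and all 5 were lower with IL-4 and with IL-13, 4 of them by over 2-fold. The part of these cells in the differences from control was not tested. Between the treated groups the granulocyte markers stayed between 1.09 and 2.36 CPM, while the megakaryocyte markers, of which Pf4 is also made by macrophages, lay between 70.4 and 74.8 CPM with IL-4 and between 72.8 and 89.7 CPM with IL-13, and with IL-6 they lay between 175 and 314 CPM beside IL-4 and between 349 and 422 CPM beside IL-13. Pf4, at 66.2 to 415 CPM over all libraries, and Ppbp were called higher with IL-6 in both settings. Itga2b, Gp1bb and Gp9 were called in neither. The 4 dendritic cell markers lay between 8.98 and 11.4 CPM in control and at no more than 0.709 CPM with IL-4 or IL-13, and with IL-6 they lay between 10.8 and 13.5 CPM beside IL-4 and between 2.28 and 2.84 CPM beside IL-13. Of this list Cd209a was called higher with IL-6 in both settings, and Flt3 and Zbtb46 were called in neither. The part of either list in the differences with IL-6 was not tested. In bulk RNA, fewer cells that express a gene and less RNA of it per cell cannot be told apart.

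Promoter sequence was available from RefSeq (GRCm38.p6) for 8 of the 10 members, in 12 windows, and the 250 bases upstream of each annotated start were searched on both strands. The motifs were the CArG box bound by SRF, the AP-1 sites TGACTCA, TGACGTCA and TGACATCA, the STAT-type site TTCNNNGAA and its longer form with 4 bases between TTC and GAA, and the EGR sites GCGTGGGCG and GCGGGGGCG. Of all 32851 windows of the same length, 1.47% held a CArG box, 4.46%, 1.55% and 2.93% held the respective AP-1 sites, 7.02% and 5.85% the STAT-type sites, and 0.536% and 2.57% the EGR sites. The windows of Egr2, Jun and Junb are shown because Egr2 had the largest response to IL-4 among the members, while Jun and Junb stayed above control in every treated group. Egr2 had a CArG box 72 bases upstream of each of 2 alternative starts, and Jun had TGACATCA 45 bases upstream of its start. Egr2 also had windows of other starts. The one at chr10:67535249-67535498 held none of the motifs. Those at chr10:67537620-67537869 and chr10:67537680-67537929 overlap the second window shown and hold its CArG box, 73 and 133 bases upstream. One window of Fosl2 held GCGGGGGCG 79 bases upstream of its start, and the windows of Junb, Fos, Jund, Nab2 and Atf3 held none of the 8 motifs. Each sequence below runs 5′ to 3′ on the strand of its gene, with the matched motif in capitals.
Egr2, chr10:67537316-67537565, plus strand: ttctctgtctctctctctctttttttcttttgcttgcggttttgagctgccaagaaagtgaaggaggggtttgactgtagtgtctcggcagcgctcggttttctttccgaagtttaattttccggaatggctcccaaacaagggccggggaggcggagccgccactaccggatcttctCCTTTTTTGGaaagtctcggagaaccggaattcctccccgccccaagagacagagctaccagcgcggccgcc
Egr2, chr10:67537619-67537868, plus strand: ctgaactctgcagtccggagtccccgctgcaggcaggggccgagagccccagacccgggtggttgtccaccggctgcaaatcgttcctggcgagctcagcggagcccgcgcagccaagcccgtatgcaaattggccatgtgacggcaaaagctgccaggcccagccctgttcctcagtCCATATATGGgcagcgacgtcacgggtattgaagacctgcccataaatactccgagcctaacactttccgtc
Jun, chr4:95052223-95052472, minus strand: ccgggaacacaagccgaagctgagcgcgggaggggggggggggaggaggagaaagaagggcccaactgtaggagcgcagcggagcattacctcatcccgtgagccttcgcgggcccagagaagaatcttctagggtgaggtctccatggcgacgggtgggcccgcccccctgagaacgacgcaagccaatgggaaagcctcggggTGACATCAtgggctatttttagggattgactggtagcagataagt
Junb, chr8:84978749-84978998, minus strand: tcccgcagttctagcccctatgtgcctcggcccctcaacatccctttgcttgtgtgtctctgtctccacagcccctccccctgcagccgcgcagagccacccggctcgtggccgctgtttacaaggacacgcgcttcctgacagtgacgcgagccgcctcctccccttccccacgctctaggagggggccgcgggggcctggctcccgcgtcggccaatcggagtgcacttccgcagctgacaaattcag
A match to a motif is a description of the letters and shows no binding, and the absence of a match says only that these letters are not in this window.

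The members lie on different chromosomes of GRCm38, apart from Egr2 (chr10:67535475-67542188) and Nab2 (chr10:127660918-127668568), and Junb (chr8:84974484-84978718) and Jund (chr8:70698949-70700616). Egr3 is at chr14:70077203-70082614, Fos at chr12:85473890-85477273, Fosl2 at chr5:32135801-32157842, Jun at chr4:95049034-95052222 and Atf3 at chr1:191170296-191218039. Egr1, Egr2, Egr3, Fos and Fosl2 share no annotated exon base with another gene, and neither does Atf3. Exons of the other members overlap genes on the opposite strand, and how strand entered the counting is not given in the sources used here. Nab2 shares 1050 bases with Gm16229 (0 reads in every library), 151 with Nemp1 and 40 with Stat6. Jun shares 232 bases with its antisense RNA Junos, and Junb shares 173 with Prdx2. Jund shares 877 of its 1668 exon bases with Gm11175, which had 0 reads in every library, and Jund itself had only 9 to 38 reads in any library. The level of Jund is therefore uncertain, and the part of this overlap in it was not tested.

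Per length, Atf3 was the most abundant of these transcripts, and Egr1, Egr3 and Jund were the least abundant. Atf3, a stress-induced factor that dampens inflammatory genes, had 124 ± 1.13 FPKM (reads scaled by the length of the gene model and the library total, SD, n = 3) in control and 244 ± 3.91 FPKM with IL-4. Junb followed at 58.9 ± 0.936 FPKM in control and Jun at 43.0 ± 0.367 FPKM. Fos stood at 24.9 ± 1.25 FPKM, Nab2 at 10.2 ± 0.624, Egr2 at 9.02 ± 0.223 and Fosl2 at 4.43 ± 0.262 FPKM in control. Egr1 (0.934 ± 0.136 FPKM), Egr3 (0.429 ± 0.14 FPKM) and Jund (0.384 ± 0.0942 FPKM) were below 1 FPKM in control. With IL-4, Egr2 reached 55.2 ± 2.17 FPKM and Fosl2 15.2 ± 0.522 FPKM, beside Fos at 16.7 ± 0.605 FPKM in the same libraries.

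**Figure D1:**
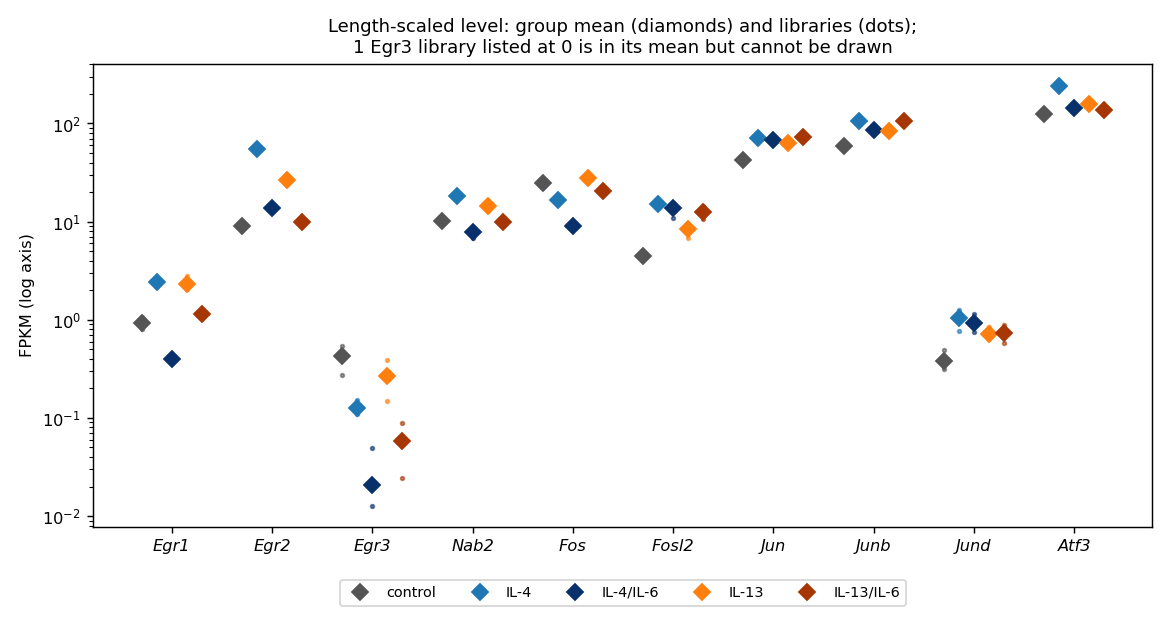
Length-scaled level (FPKM, log axis) of the 10 members by group, with diamonds for group means and dots for the 3 libraries. Atf3, Junb and Jun lie at the top in every group, Egr1, Egr3 and Jund at the bottom, and Egr2 moves from 9.02 FPKM in control to 55.2 FPKM with IL-4.

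Egr2 rose with IL-4 and with IL-13 and was brought down by IL-6 in both settings. This zinc-finger factor, known for its roles in myelination and in T cell tolerance, is a gene that IL-4 induces in macrophages. Its normalized level, in CPM scaled with TMM factors, was 29.3, 28.9 and 29.9 in the control replicates. It was 193.7, 178.9 and 184.3 CPM with IL-4 and 49.2, 47.8 and 52.5 CPM with IL-4/IL-6. In the IL-13 replicates it was 81.5, 94.4 and 90.2 CPM, and with IL-13/IL-6 it was 31.5, 37.6 and 34.6 CPM. No library of one group reached into the range of another, so that the order was IL-4, IL-13, IL-4/IL-6, IL-13/IL-6, control, and each neighbour in it differed from the next in edgeR's quasi-likelihood test (adjusted p between 6.7e-08 and 0.0148 for the lower pairs, and 3.51e-08 for IL-4 against IL-13). IL-4 raised Egr2 6.32-fold over control (log2 fold change 2.66 ± 0.08 SE, adjusted p = 3.39e-14) and IL-13 3.02-fold (1.60 ± 0.08, adjusted p = 2.19e-11). Adding IL-6 lowered it 3.73-fold from IL-4 (log2 fold change -1.90 ± 0.08, adjusted p = 2.44e-12) and 2.56-fold from IL-13 (-1.36 ± 0.08, adjusted p = 4.03e-10). Egr2 stayed above control with IL-4/IL-6 (1.70-fold, adjusted p = 1.36e-07), and with IL-13/IL-6 it was 1.18-fold above control (adjusted p = 0.0148), a call that was lost without replicate 2 of IL-13/IL-6 (log2 fold change 0.18, adjusted p = 0.0805).

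Egr1, the founding member of the family and a standard readout of ERK and SRF activity, showed the same direction at a much lower level. Its normalized level was 3.44, 3.99 and 4.6 CPM in control, from 66 to 82 reads. With IL-4 it was 9.90, 10.4 and 11.8 CPM, and with IL-4/IL-6 it was 1.93, 2.00 and 1.79 CPM. The IL-13 replicates had 9.21, 8.84 and 12.2 CPM, and those with IL-13/IL-6 had 5.38, 5.48 and 4.84 CPM. The IL-4 and IL-13 libraries overlapped each other and lay above all others, while the IL-4/IL-6 libraries lay below control. Egr1 was 2.67-fold higher with IL-4 (log2 fold change 1.42 ± 0.15 SE, adjusted p = 3.38e-07) and 2.52-fold higher with IL-13 (1.33 ± 0.15, adjusted p = 9.59e-07) than in control. IL-6 lowered it 5.60-fold from IL-4 (log2 fold change -2.48 ± 0.17, adjusted p = 2.55e-09), to 2.1-fold below control (adjusted p = 6.25e-05). From IL-13, IL-6 lowered it 1.93-fold (-0.95 ± 0.15, adjusted p = 9.9e-05), to a level 1.31-fold above control (adjusted p = 0.0455), and this last call was lost in 4 of the other analyses and on leaving out any of 4 single libraries.

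Egr3, better known from lymphocytes and muscle spindles, was near the limit of detection. It had 22, 42 and 35 reads in the control replicates and 12, 21 and 32 with IL-13, and it passed the low-count filter only through these 2 groups, so its lower values in the other groups are a description and lend no support to a count. It had 9, 12 and 9 reads with IL-4, 4, 0 and 1 with IL-4/IL-6, and 7, 2 and 5 with IL-13/IL-6. All libraries with IL-6 were below all libraries without it. Egr3 was 3.29-fold lower with IL-4 than in control (log2 fold change -1.72 ± 0.45 SE, adjusted p = 0.00308), unlike Egr1 and Egr2, and its difference between IL-13 and control was not called (-0.64, 95% interval -1.5 to 0.23, adjusted p = 0.191). It was lower again with IL-4/IL-6 than with IL-4 (-2.42, 95% interval -3.99 to -0.85, adjusted p = 0.0152) and with IL-13/IL-6 than with IL-13 (-2.12, 95% interval -3.27 to -0.98, adjusted p = 0.00713). The first of these calls was lost without replicate 2 of IL-4/IL-6, the library with 0 reads (-1.90, adjusted p = 0.0501). No pair of neighbours in the order control, IL-13, IL-4, IL-13/IL-6, IL-4/IL-6 was called as different (adjusted p between 0.152 and 0.239).

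Nab2, a corepressor that binds EGR proteins and is itself an EGR target, followed Egr1. It was at 26.7, 29.5 and 30.1 CPM in control, 53.1, 53.6 and 52.2 with IL-4 and 20.9, 27.8 and 24.5 with IL-4/IL-6. With IL-13 it was at 45.0, 36.8 and 43.2 CPM, and with IL-13/IL-6 at 29.7, 28.5 and 31.8 CPM. Thus the IL-4 and IL-13 libraries were the highest, and those with IL-6 came down to between 20.9 and 31.8 CPM, around the range of control. IL-4 raised Nab2 1.84-fold (log2 fold change 0.88 ± 0.10 SE, adjusted p = 5.11e-07) and IL-13 1.45-fold (0.54 ± 0.10, adjusted p = 0.000164). IL-6 lowered it 2.17-fold from IL-4 (-1.12 ± 0.10, adjusted p = 6.95e-08) and 1.39-fold from IL-13 (-0.47 ± 0.10, adjusted p = 0.00136). Its difference between IL-13/IL-6 and control was not called (0.06, 95% interval -0.15 to 0.27, adjusted p = 0.609). Its call between IL-4/IL-6 and control (1.18-fold lower, adjusted p = 0.044) rested on groups whose libraries overlapped, and it was lost in 3 of the other analyses and on leaving out any of 11 single libraries (log2 fold change -0.12, adjusted p = 0.296, without replicate 1 of IL-4/IL-6, and -0.22, adjusted p = 0.0507, without replicate 1 of IL-13). Across the 15 libraries, log2 levels of Nab2 correlated with those of Egr1 (Pearson r = 0.905) and Egr2 (r = 0.84), a description over points that share groups and the same normalization.

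**Figure D2:**
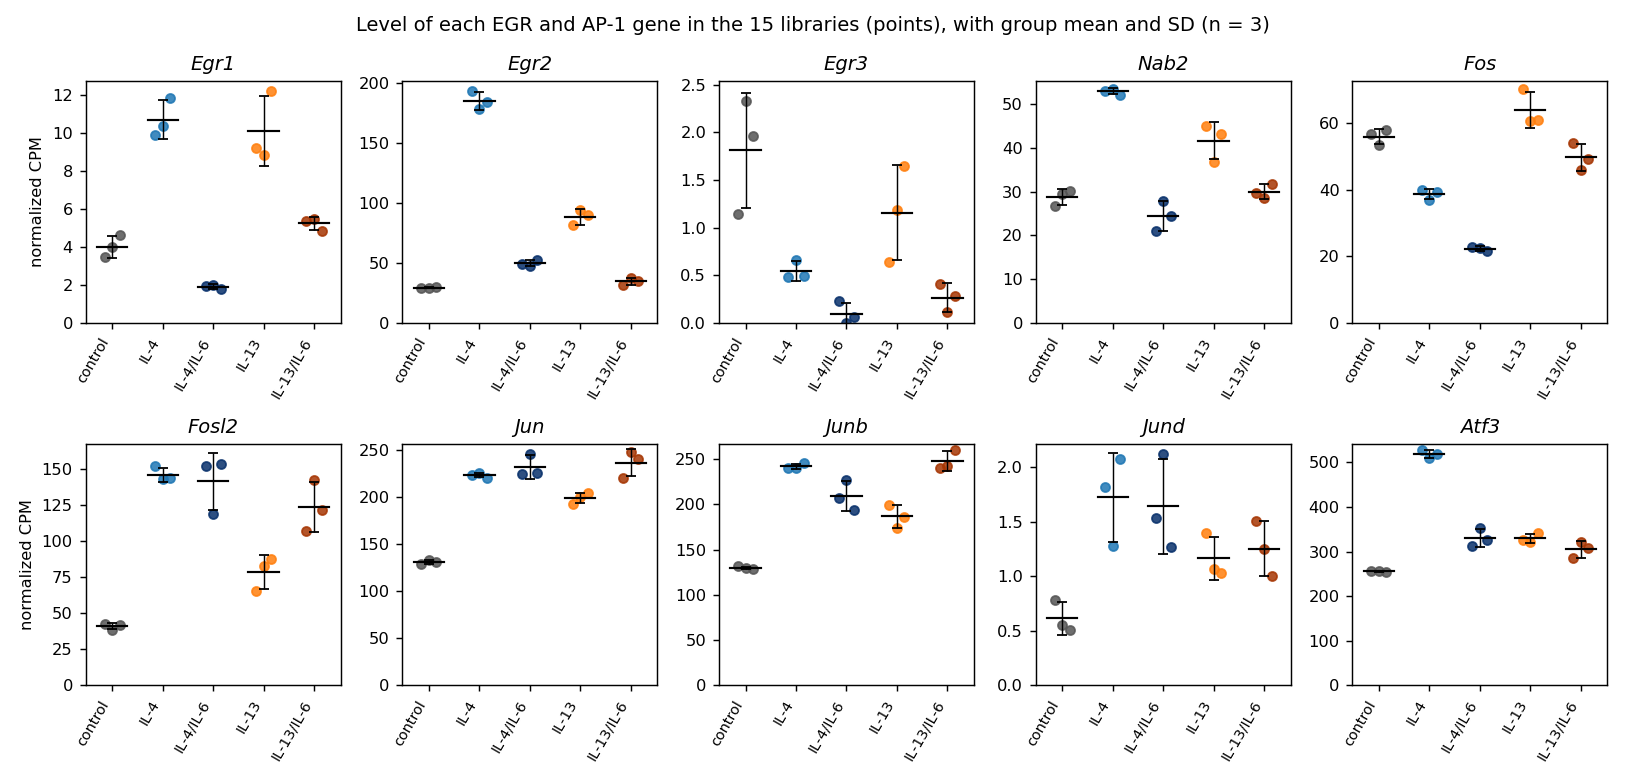
Normalized CPM (linear axes from 0) of each member in the 15 libraries, with points for libraries, horizontal lines for group means and whiskers for SD (n = 3). Egr1, Egr2 and Nab2 are highest with IL-4 or IL-13 and lower wherever IL-6 was added, whereas Fosl2, Jun and Junb lie above control in all 12 treated libraries.

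Of the FOS proteins, which bind DNA only as dimers with a JUN protein, Fos and Fosl2 went different ways. Fos, the prototype immediate-early gene, was at 56.8, 53.4 and 58.0 CPM in control, 40.0, 37.1 and 39.4 with IL-4 and 22.9, 22.5 and 21.7 with IL-4/IL-6. With IL-13 it was at 70.3, 60.7 and 60.9 CPM and with IL-13/IL-6 at 54.0, 46.1 and 49.3 CPM. The IL-4 libraries lay below all control libraries and the IL-13 libraries above them. Fos fell 1.44-fold with IL-4 (log2 fold change -0.53 ± 0.08 SE, adjusted p = 1.41e-05), and was 1.14-fold higher with IL-13 (0.19 ± 0.08, adjusted p = 0.041). The latter call was lost with upper-quartile scaling, with a stricter filter and without replicate 1 of IL-13 (0.15, adjusted p = 0.106), replicate 1 of control (0.21, adjusted p = 0.0659) or replicate 2 of control (0.17, adjusted p = 0.123). IL-6 lowered Fos 1.74-fold from IL-4 (-0.80 ± 0.08, adjusted p = 4.28e-07) and 1.29-fold from IL-13 (-0.36 ± 0.08, adjusted p = 0.00179). In IL-4/IL-6 it stood 2.51-fold below control (adjusted p = 1.55e-10).

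Fosl2, which encodes FRA2, a FOS relative that lacks the strong activation domain of FOS, rose in every treated group. It was at 42.4, 38.6 and 42.1 CPM in control, 151.5, 142.5 and 143.2 with IL-4, and 152.0, 118.4 and 153.3 with IL-4/IL-6. Values with IL-13 were 65.3, 82.7 and 87.7 CPM, and with IL-13/IL-6 they were 107.0, 142.0 and 121.2 CPM. The low value of IL-4/IL-6 came from replicate 2 and the low value of IL-13 from replicate 1, the same libraries that stood apart over all genes. Fosl2 was 3.55-fold above control with IL-4 (log2 fold change 1.83 ± 0.12 SE, adjusted p = 8.28e-10) and 1.92-fold with IL-13 (0.94 ± 0.12, adjusted p = 4.3e-06). IL-6 added to IL-4 gave a difference of -0.04 (95% interval -0.29 to 0.20, adjusted p = 0.798), or 0.05 without replicate 2 of IL-4/IL-6. Added to IL-13, IL-6 raised it 1.57-fold (0.65 ± 0.12, adjusted p = 0.000434). The groups with IL-6 did not differ detectably (IL-4/IL-6 against IL-13/IL-6 0.19, 95% interval -0.05 to 0.44, adjusted p = 0.225), except without replicate 2 of IL-4/IL-6, when Fosl2 was called higher in IL-4/IL-6 (0.31, adjusted p = 0.0363).

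Jun and Junb, the DNA-binding partners of FOS proteins, rose together in all treated groups. Jun was at 129.2, 133.0 and 131.4 CPM in control, 223.4, 225.2 and 220.6 with IL-4, and 224.1, 246.1 and 225.0 with IL-4/IL-6. With IL-13 it was at 192.7, 199.6 and 203.8 CPM, and with IL-13/IL-6 at 220.3, 247.7 and 240.6 CPM. Every treated library was above every control library, with a wide gap. Jun was 1.70-fold above control with IL-4 (log2 fold change 0.77 ± 0.06 SE, adjusted p = 6.48e-09) and 1.51-fold with IL-13 (0.60 ± 0.06, adjusted p = 1.98e-07). IL-6 beside IL-4 gave 0.05 (95% interval -0.07 to 0.18, adjusted p = 0.507), a difference whose sign turned with upper-quartile scaling, and beside IL-13 it raised Jun 1.19-fold (0.25 ± 0.06, adjusted p = 0.00447).

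Junb, a weaker activator than JUN that can oppose it, was at 131.4, 129.4 and 128.9 CPM in control, 240.3, 240.6 and 245.6 with IL-4, and 207.5, 227.2 and 194.1 with IL-4/IL-6. With IL-13 it was at 199.8, 174.0 and 186.1 CPM, and with IL-13/IL-6 at 240.4, 242.9 and 260.4 CPM. IL-6 therefore moved Junb in opposite directions beside the 2 cytokines, and in neither case did the groups overlap. It was 1.86-fold above control with IL-4 (log2 fold change 0.90 ± 0.07 SE, adjusted p = 3.63e-09) and 1.44-fold with IL-13 (0.52 ± 0.07, adjusted p = 3.89e-06). It was 1.15-fold lower with IL-4/IL-6 than with IL-4 (-0.21 ± 0.07, adjusted p = 0.0197), a call lost without replicate 3 of IL-4/IL-6 (-0.17, adjusted p = 0.0597), and 1.33-fold higher with IL-13/IL-6 than with IL-13 (0.41 ± 0.07, adjusted p = 0.000155). Jund, usually the most constant JUN gene, had 15, 10 and 9 reads in control, 34, 23 and 38 with IL-4, 27, 36 and 22 with IL-4/IL-6, 26, 19 and 20 with IL-13 and 26, 23 and 18 with IL-13/IL-6. Jund passed the low-count filter through the 4 treated groups and not through control, so its difference from control is a description and lends no support to a count. These low counts were higher in all treated libraries than in control, by 2.78-fold with IL-4 (log2 fold change 1.47 ± 0.31, adjusted p = 0.000514) and 1.88-fold with IL-13 (0.91 ± 0.33, adjusted p = 0.0243). The IL-13 call was lost without replicate 1 of IL-13 (0.80, adjusted p = 0.0821), replicate 2 of control (0.85, adjusted p = 0.0677) or replicate 3 of control (0.80, adjusted p = 0.0809). A change of Jund with IL-6 was not detectable at these counts (-0.07, 95% interval -0.65 to 0.51, beside IL-4, and 0.10, 95% interval -0.52 to 0.73, beside IL-13).

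Atf3 was at 256.8, 256.6 and 253.5 CPM in control and rose with IL-4 to 528.3, 510.3 and 518.1 CPM. It was at 313.0, 352.6 and 326.2 CPM with IL-4/IL-6, 327.1, 321.0 and 340.9 with IL-13, and 285.2, 321.9 and 308.6 with IL-13/IL-6. The IL-4 libraries stood alone at the top, the other treated groups overlapped one another, and all 12 treated libraries were above control. Atf3 rose 2.03-fold with IL-4 (log2 fold change 1.02 ± 0.06 SE, adjusted p = 1.84e-10) and 1.29-fold with IL-13 (0.37 ± 0.06, adjusted p = 5.84e-05). IL-6 lowered it 1.57-fold from IL-4 (-0.65 ± 0.06, adjusted p = 1.29e-07). Beside IL-13 the difference was not called (-0.11, 95% interval -0.24 to 0.02, adjusted p = 0.211). With IL-6 present, Atf3 did not differ detectably between the cultures with IL-4 and those with IL-13 (0.11, 95% interval -0.01 to 0.24, adjusted p = 0.164).

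Counts are given over the 8 members that passed the low-count filter through every group, and Egr3 and Jund, which did not, stand outside them. IL-4 raised 7 of the 8 (Egr1, Egr2, Nab2, Fosl2, Jun, Junb and Atf3) and lowered Fos, while 32.1% of all tested genes were called higher and 35.9% lower in this comparison. IL-13 raised all 8, where 29% of all tested genes were higher and 31.1% lower. At a change of at least 2-fold, 4 were higher and 0 lower with IL-4 (10% and 16.1% of all tested genes), and with IL-13 Egr1 and Egr2 were higher and none was lower (7.74% and 12.6% of all tested genes). The median log2 fold change of the 8 was 0.96 with IL-4 and 0.57 with IL-13, and that of all tested genes was -0.05 and -0.02. IL-6 beside IL-4 lowered 6 of the 8 (Egr1, Egr2, Nab2, Fos, Junb and Atf3) and raised 0, where 18.7% of all tested genes were lower and 20.7% higher. With upper-quartile scaling the share of higher genes among all called genes in this comparison was 39% in place of 52.6%. Beside IL-13 it lowered 4 of the 8 (Egr1, Egr2, Nab2 and Fos) and raised 3 (Fosl2, Jun and Junb), where 13.5% of all tested genes were lower and 12.1% higher. At 2-fold, Egr1, Egr2 and Nab2 were lower beside IL-4 (7.47% of all tested genes) and Egr2 beside IL-13 (4.19%), and none was higher in either setting (4.34% and 3.06% of all tested genes). The comparisons with control share the control libraries, and each comparison with IL-6 shares its IL-4 or IL-13 libraries with one against control, so their counts are not independent of each other.

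**Figure D3:**
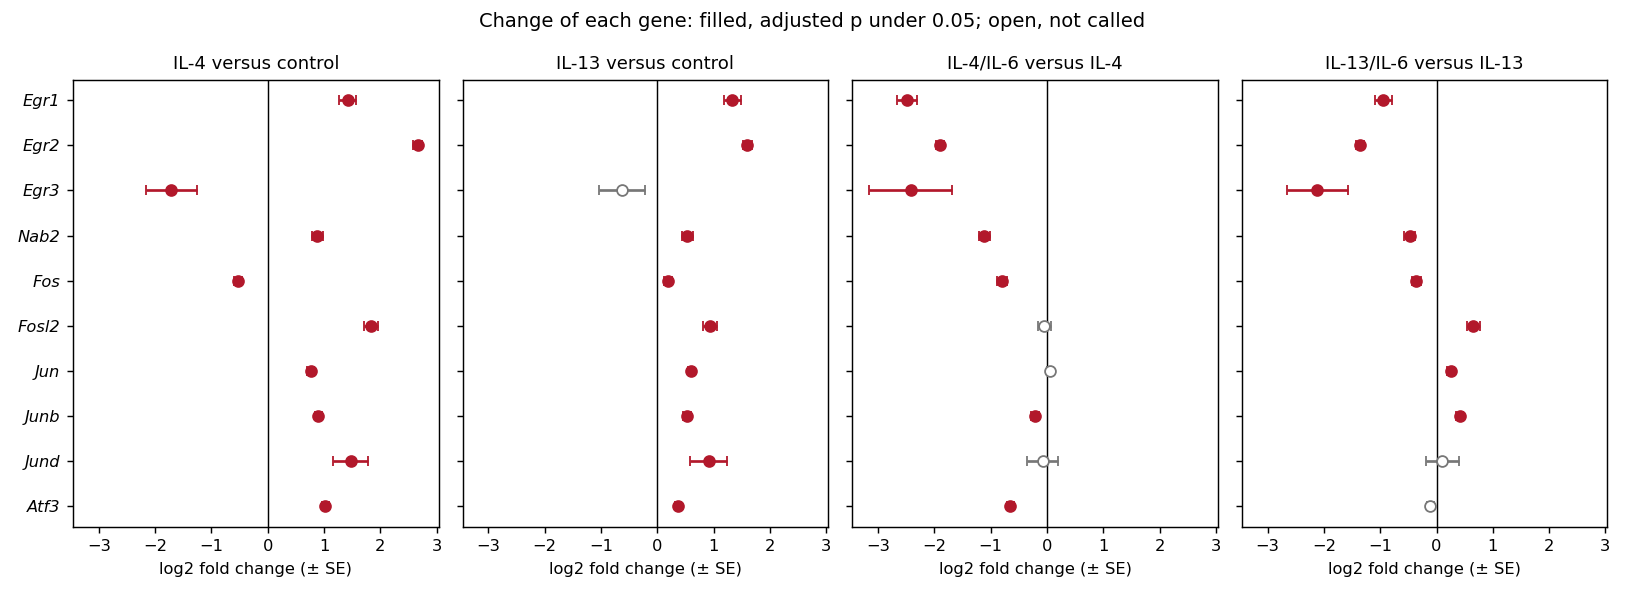
Log2 fold change with SE of the 10 members in 4 comparisons, with filled points where the adjusted p was under 0.05 and open points where it was not. With IL-6 beside IL-4 the points lie to the left of 0 or at it, from -2.48 for Egr1 to 0.05 for Jun, and beside IL-13 Fosl2, Jun and Junb lie to the right.

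Against untreated cells, 5 of the 8 members were higher in IL-4/IL-6 (Fosl2, Jun, Junb, Atf3 and Egr2) and Egr1, Nab2 and Fos were lower. Of all tested genes 35.4% were higher and 37.5% lower, so the lower count is near the background, and the call of Nab2 was lost in 14 of 22 alternatives. In IL-13/IL-6, 6 of the 8, Egr1 among them, were higher and 0 lower (31.9% and 32.1% of all tested genes), while Nab2 and Fos were not called. Fosl2, the member with the largest rise in these cultures, was 3.44-fold above control with IL-4/IL-6 (log2 fold change 1.78 ± 0.12 SE, adjusted p = 7.57e-10) and 3.01-fold with IL-13/IL-6 (1.59 ± 0.12, adjusted p = 5.05e-09). Jun was 1.77-fold and 1.80-fold above control in these groups, and Junb 1.61-fold and 1.91-fold. Fos in IL-13/IL-6 was at -0.17 (adjusted p = 0.0633) and passed the threshold in 6 of the other analyses.

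The log2 fold change on adding IL-6 was lower beside IL-4 than beside IL-13 for 7 of the 8 members, by the test of the difference between the 2 IL-6 effects, in which 4.42% of all tested genes were called in this direction and 3.22% in the other. The difference in log2 fold change was -1.54 ± 0.23 SE for Egr1 (adjusted p = 0.000289), -0.54 ± 0.11 for Egr2 (adjusted p = 0.00336) and -0.64 ± 0.14 for Nab2 (adjusted p = 0.00691). For the AP-1 genes it was -0.44 ± 0.11 for Fos (adjusted p = 0.0225), -0.70 ± 0.17 for Fosl2 (adjusted p = 0.0135), -0.62 ± 0.09 for Junb (adjusted p = 0.000369) and -0.54 ± 0.09 for Atf3 (adjusted p = 0.000513). The value for Fosl2 reflects a rise beside IL-13 and no called change beside IL-4, and that for Junb a rise beside IL-13 and a fall beside IL-4. For Jun (-0.19, 95% interval -0.37 to -0.02, adjusted p = 0.221), Jund (-0.17, 95% interval -1.03 to 0.68) and Egr3 (-0.30, 95% interval -2.18 to 1.58) no difference was called. The count of 7 stayed at 7 without replicate 2 of IL-4/IL-6 and without replicate 1 of IL-13, and was 6 without any of 5 other single libraries, when Fos was not called. With upper-quartile scaling 31.7% of all called genes were higher in this test in place of 42.2%, and 7 members were still lower.

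**Figure D4:**
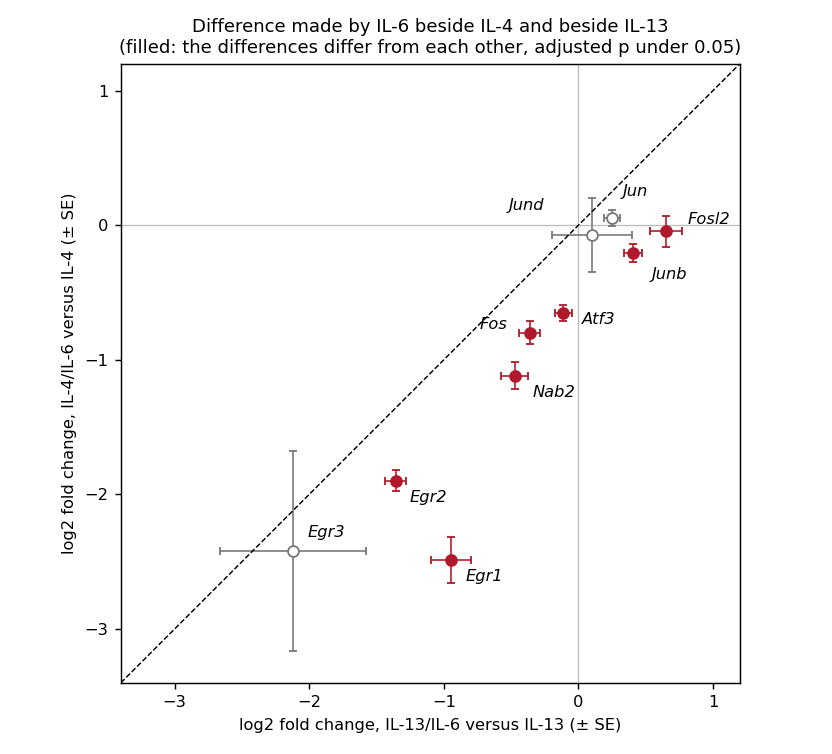
Log2 fold change with SE on adding IL-6, beside IL-13 (horizontal) and beside IL-4 (vertical), with filled points where the difference between them had an adjusted p under 0.05 and a dashed line of equal change. The filled points lie on the side where the change beside IL-4 is the more negative, with Egr1 farthest from the line (-2.48 against -0.95). For the open points, Jun, Jund and Egr3, no difference was called.

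IL-4 and IL-13 were used at different doses, so the levels with each describe these cultures and not the potency of the cytokines. Between the 2 groups, Egr2 was 2.09-fold higher with IL-4 (adjusted p = 3.51e-08), Fosl2 1.85-fold (adjusted p = 5.15e-05), Atf3 1.57-fold (adjusted p = 9.03e-07), Junb 1.30-fold (adjusted p = 0.000922) and Nab2 1.27-fold (adjusted p = 0.0245), which made 5 members higher where 5.16% of all tested genes were. Fos was 1.65-fold lower with IL-4 (adjusted p = 5.49e-06), where 7.61% of all tested genes were lower. For Egr1 (0.08, 95% interval -0.21 to 0.38, adjusted p = 0.742), Egr3, Jund and Jun no difference was called, and Jun (0.17, adjusted p = 0.0772) passed the threshold without replicate 2 of IL-4/IL-6 (adjusted p = 0.0267) and in 3 of the other analyses. With IL-6 present, Egr2 was 1.44-fold higher with IL-4 (adjusted p = 5.33e-05, 15.8% of all tested genes higher), and 4 members were lower with it (15.5%): Egr1 2.74-fold (adjusted p = 8.62e-06), Fos 2.23-fold (adjusted p = 1.13e-08), Nab2 1.23-fold (adjusted p = 0.0327) and Junb 1.18-fold (adjusted p = 0.0107). The Nab2 calls were lost in several of the analyses that left out a library.

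Other genes of these pathways were taken as whole lists, to be read against all tested genes, of which 32.1% were higher and 35.9% lower with IL-4, 29% and 31.1% with IL-13, 20.7% and 18.7% with IL-6 beside IL-4, and 12.1% and 13.5% with IL-6 beside IL-13. Of the other EGR genes only Nab1, the sister corepressor of Nab2, was tested. It was lower with IL-4 (log2 fold change -0.33 ± 0.06, adjusted p = 0.000169) and not called with IL-13 (0.09, adjusted p = 0.229), and it rose by 0.64 with IL-6 beside IL-4 (adjusted p = 2.53e-07) and by 0.44 beside IL-13 (adjusted p = 3.05e-05). All 15 other AP-1 family genes were tested, and IL-4 raised 6 and lowered 7, where 32.1% and 35.9% of all tested genes were, with a median log2 fold change of -0.03. IL-6 raised 8 and lowered 3 of them beside IL-4 (median 0.32 against 0.04 for all tested genes) and raised 7 and lowered 1 beside IL-13 (median 0.14 against 0.01). Batf, a partner of JUN proteins in lymphocytes, rose with IL-6 by 2.49 on the log2 scale beside IL-4 (from 3.74 to 21.0 CPM, adjusted p = 5.42e-10) and by 1.86 beside IL-13 (from 2.45 to 8.93 CPM, adjusted p = 1.41e-07). Maf, a macrophage and T cell factor linked to IL-10, was at 248 CPM in control and rose with IL-6 from 123 to 566 CPM beside IL-4 (2.2 ± 0.08, adjusted p = 4.96e-13). Beside IL-13 Maf rose from 268 to 402 CPM (0.59, adjusted p = 1.03e-05). At low levels, Fosl1 (2.04 to 0.556 CPM, -1.86 ± 0.42, adjusted p = 0.00164) and Fosb (1.29 to 0.438 CPM, -1.53 ± 0.45, adjusted p = 0.0111) fell with IL-6 beside IL-4. Neither was called with IL-6 beside IL-13.

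Of the 26 tested genes of the ERK, JNK and SRF pathways, IL-4 raised 10 and lowered 9 (median 0.05), near the shares of 32.1% and 35.9% over all tested genes, and IL-6 raised 8 and lowered 6 beside IL-4 (median 0.08) and raised 5 and lowered 3 beside IL-13 (median 0.09). Mapk3, which encodes ERK1, fell with IL-6 beside IL-4 from 223 to 108 CPM (-1.04 ± 0.07, adjusted p = 9.44e-10) and beside IL-13 from 225 to 149 CPM (-0.60 ± 0.07, adjusted p = 1.66e-06). Braf, a kinase at the top of the ERK cascade, was lower with IL-4 (log2 fold change -1.4, adjusted p = 9.04e-08), and Ets2, an ERK-responsive factor, was higher by 1.49 (adjusted p = 4.62e-12). Of 11 feedback genes of ERK, 9 were tested, and IL-4 and IL-13 each raised 7 and lowered 1 (median 1.21 and 1.76). Etv5 rose from 16.8 CPM in control to 165 CPM with IL-4 (3.30 ± 0.11, adjusted p = 1.56e-13) and Dusp4, a phosphatase of ERK, from 19.1 to 177 CPM (3.21 ± 0.15, adjusted p = 6.23e-12). IL-6 raised 3 and lowered 2 of the 9 in each setting, with Dusp6, the ERK phosphatase, higher beside IL-4 (58.9 to 146 CPM, adjusted p = 2.63e-11) and Dusp5 lower (7.63 to 2.09 CPM, adjusted p = 2.18e-08).

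Among 22 other immediate-early genes, IL-4 raised 13 and lowered 6 (median 0.50), and IL-6 lowered 11 and raised 7 beside IL-4 (median -0.29) and lowered 5 and raised 7 beside IL-13 (median 0.08). Myc rose with IL-4 from 11.8 to 123 CPM (3.38 ± 0.07, adjusted p = 9.73e-16) and Klf4 from 12 to 111 CPM (3.21 ± 0.10, adjusted p = 4.89e-14). With IL-6 beside IL-4, Btg2 (10.2 to 2.75 CPM, adjusted p = 5.68e-10) and Klf2 (21.6 to 9.12 CPM, adjusted p = 6.13e-08) fell and Ier3 rose (30.2 to 140.3 CPM, adjusted p = 2.62e-10). The test of the difference between the IL-6 effects called 7 of the 22 lower beside IL-4 and 1 higher, against 4.42% and 3.22% of all tested genes. Of 20 textbook targets of EGR and AP-1 proteins, 18 were tested. IL-4 raised 13 and lowered 3 (median 0.93), IL-13 raised 13 and lowered 2 (median 0.71), and IL-6 lowered 11 and raised 6 beside IL-4 (median -0.60) and lowered 10 and raised 5 beside IL-13 (median -0.27). Pdgfb, a growth factor gene with an EGR site in its promoter, fell with IL-6 from 42.4 to 2.46 CPM beside IL-4 (-4.10 ± 0.13, adjusted p = 1.7e-13). The members of this list that rose with IL-6 included Ccl2 (299.7 to 2286 CPM, adjusted p = 2.01e-12) and Timp1 (8.43 to 63.6 CPM, adjusted p = 3.88e-10), a chemokine and an inhibitor of metalloproteinases.

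**Figure D5:**
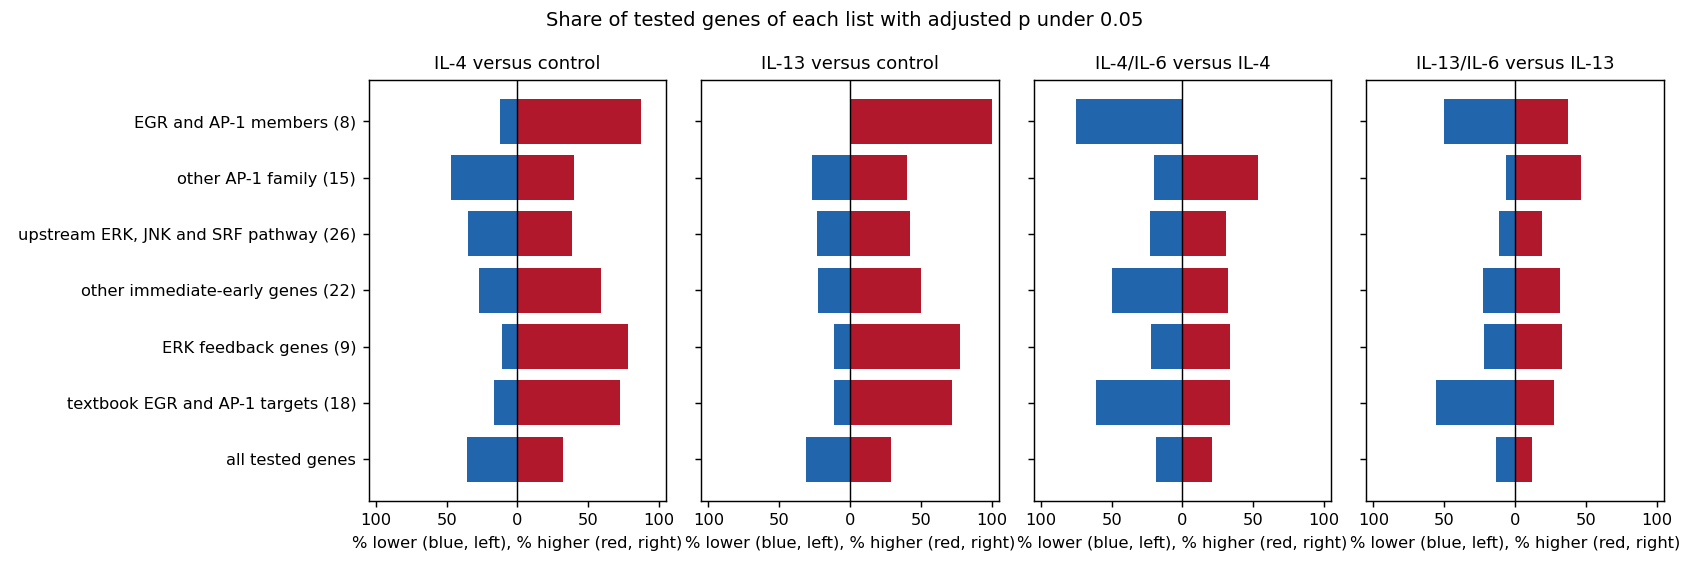
Share of tested genes called higher (red, to the right) or lower (blue, to the left) in 4 comparisons, for the 8 members that passed the filter in every group, 5 lists and all 13938 tested genes; each axis is in percent. Beside IL-4, IL-6 lowered 6 of the 8 members and 11 of 18 textbook targets, and 18.7% of all tested genes.

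The genes whose levels were most like those of each member were ranked by Pearson r of log2 CPM over the 15 libraries, among 9405 genes with a group mean of at least 10 CPM. Egr2 was most like Ocstamp (r = 0.989) and Il1rl1 (r = 0.981), the latter at 1.25 CPM in control, 55.4 CPM with IL-4 and 4.58 CPM with IL-4/IL-6. Egr1 was most like A230028O05Rik (r = 0.967) and Rin2 (r = 0.966), and Nab2 like Rhoc (r = 0.972). Fos was most like Ifitm6 (r = 0.981), Fosl2 like Cblb (r = 0.978), and Jun like Neat1 (r = 0.986). Junb was most like Tmem106a (r = 0.971) and Atf3 like Wwc1 and Il1rl1 (both r = 0.936). Among the members themselves, Jun went with Junb (r = 0.941) and Fosl2 (r = 0.936), Egr2 with Atf3 (r = 0.923), and Egr2 did not go with Fos (r = -0.09). An r over 0.9 with Jun was shared by 8.25% of the candidate genes, against 2.57% for Fosl2, 1.05% for Junb and 0.957% for Fos. These correlations describe 15 points that fall into 5 groups, and ranking by Spearman's rho kept at most 1 of the 3 leading genes of any member.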

How the data were processed

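RNA was sequenced from mouse BMDMs in 5 groups of 3 libraries. The authors deposited a matrix of raw read counts per gene for all libraries and a table of FPKM values for each library. Per the labels' processing notes, CASAVA, Bowtie2 2.2.3, HISAT2 2.1.0, TopHat2 and DESeq2 were used with GRCm38, and the counting tool and annotation are not given in the sources used here. The deposited FPKM values equal count / total count / a fixed length per gene (relative difference at most 2.41e-08 over 174960 values). Symbols came with a table of identifiers (53274 of 53465 matched), coordinates from GENCODE vM21 and promoters from RefSeq.

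Counts of all 15 libraries were fitted in 1 model with edgeR 4.0.16 (R 4.3.3, limma 3.58.1): TMM factors, filterByExpr with a minimum count of 10, and the quasi-likelihood F-test, Benjamini-Hochberg adjusted over the 13938 tested genes. A gene was called at an adjusted p under 0.05, and for 2-fold counts also at an absolute log2 fold change of at least 1. The SE of a log2 fold change is its size divided by the square root of F, and intervals are 95%. Levels are CPM with TMM factors, log2 levels used a prior count of 2, and levels of different genes were compared as FPKM. Depth was 17001352 to 18918686 counted reads per library. The fit was tested on simulated counts.

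Alternatives were upper-quartile and RLE factors, no filter or at least 50 counts in 3 libraries, a replicate block, only the groups compared, DESeq2 1.42.0, glmTreat, CPM without factors, and leaving out each library. Named genes were the 10 members and, of each list, those among the 4 with the largest called change in a comparison; genes with 3 or fewer reads in a group were left unnamed, and some items are not reported here. Genes most like a member were the 3 with the highest Pearson r. Members and lists were chosen with earlier results of these data known.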

Additional observations from a re-analysis of the deposited data

Results flagged for a closer look

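For 7 of the 8 members that passed the filter in every group, the effect of IL-6 differed between cultures with IL-4 and cultures with IL-13, by the test of the difference between the effects in edgeR's quasi-likelihood fit. All 7 were called lower, where 4.42% of all tested genes were lower and 3.22% higher. The difference in log2 fold change, IL-4 setting minus IL-13 setting, was -1.54 for Egr1, which fell by 2.48 beside IL-4 and by 0.95 beside IL-13. It was -0.54 for Egr2, -0.64 for Nab2, -0.44 for Fos and -0.54 for Atf3, whose own change beside IL-13 was not called. For Fosl2 it was -0.70, with a rise beside IL-13 and no called change beside IL-4, and for Junb it was -0.62, with changes of opposite sign. The call of Fos was lost on leaving out any of 5 single libraries.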

How the results depend on the processing

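Of 90 results of single members, 70 were called. Of these, 60 kept their call and direction under every other fit run (at most 22 each), and of the 20 uncalled, 10 stayed so with the same sign. These fits leave out glmTreat, which tests against 2-fold, and CPM without factors. With CPM without factors, neighbouring groups that did not differ detectably changed places for Nab2, Jun, Junb and Atf3. Replicate numbers did not pair the libraries (correlations of deviations between same-numbered libraries ran from -0.276 to 0.163). With a replicate block Fos was called lower with IL-13/IL-6 than in control (adjusted p = 0.0434), while Nab2 lost its call between IL-4/IL-6 and control (adjusted p = 0.0563). Fos was also called lower with IL-13/IL-6 than in control with upper-quartile factors, RLE factors, at least 50 counts in 3 libraries, only the groups compared and DESeq2. With at least 50 counts in 3 libraries, Egr3 was not tested, and 1 member was lower with IL-4 than in control. Jun with IL-6 beside IL-4 was -0.034 with upper-quartile factors. Of all genes, 2900 in place of 4368 were called between IL-4/IL-6 and IL-13/IL-6 when only these groups were fitted.

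On leaving out 1 library, genes called between IL-4 and IL-13 ran from 1088 (without IL-13 replicate 3) to 2915 (without IL-13 replicate 1) around 1779, with 1167, 1128, 1149 and 2865 without IL-4 replicates 2 and 3, IL-13 replicate 2 and IL-4/IL-6 replicate 2, and members higher with IL-4/IL-6 than with IL-13/IL-6 ran from 1 to 2. Uncalled values changed sign: with IL-6 beside IL-4, Fosl2 ran from -0.13 to 0.053, Jun from -0.0047 to 0.058 and Jund from -0.31 to 0.063. Jund with IL-6 beside IL-13 ran from -0.059 to 0.24, Egr1 between IL-4 and IL-13 from -0.0061 to 0.24, Jun between IL-4/IL-6 and IL-13/IL-6 from -0.085 to 0.00036, and the difference between the IL-6 effects on Egr3 from -1.83 to 0.24. The cause of these shifts was not tested. Low counts limit the results of Egr3 and Jund, with at most 42 and 38 reads in any library. The part of the overlap with Gm11175 in the counts of Jund was not tested.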
